A study of Mus musculus with 8 samples.

Results

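The Rab GTPases, the largest branch of the Ras superfamily of small GTPases, were described in mouse macrophages treated with combinations of cytokines and bacterial lipopolysaccharide. A gene counted as a Rab gene where its symbol in the array's annotation was Rab followed by a number and at most a letter and a digit, with 1 symbol only on its probe set. The rule gave 62 probe sets for 59 genes, of 19938 genes with a single symbol, and the probe set with the highest mean over the 8 arrays stood for each gene. The rule reads symbols and mean signal. The cells were mouse bone marrow-derived macrophages, taken after 6 h in 4 groups of 2 samples, with 1 Affymetrix mouse gene array per sample. The groups were untreated cells, cells given IFN-gamma and LPS, cells given IL-4 and IL-13, and cells given LPS with IL-4 and IL-13. LPS is a component of the outer membrane of Gram-negative bacteria, IFN-gamma is the cytokine of classical macrophage activation, and IL-4 and IL-13 drive alternative activation. The sources used here give no strain, age or dose. They also do not say if both arrays of a group stem from different cultures, so the p-values reflect how far these arrays lie apart and may cover technical variation alone. No group received LPS alone, so the part of IFN-gamma and that of IL-4 and IL-13 cannot be told apart between the groups with LPS.

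Rab proteins switch between a GTP-bound form that sits on a membrane and recruits effectors, and a GDP-bound form that is pulled off it. Exchange factors switch them on, GTPase-activating proteins switch them off, and prenyl groups at their C-terminus anchor them. Each Rab marks a compartment: Rab5 proteins the early endosome, Rab7 the late endosome, Rab11 proteins the recycling endosome, Rab1 and Rab6 proteins the path through the Golgi. In macrophages they direct the maturation of phagosomes, the delivery of Toll-like receptors and the release of cytokines.

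Values are log2 signal, on which a difference of 1 is a 2-fold change, and levels are compared only between arrays for the same probe set. Array medians lay between 6.12 and 6.2. The median gap between replicate arrays over the 59 Rab genes was 0.06 in untreated cells, 0.12 under IFN-gamma/LPS, 0.09 under IL-4/IL-13 and 0.16 under LPS/IL-4/IL-13. The widest gap was that of Rab18 under LPS/IL-4/IL-13, at 0.69. The treatments were visible in their usual markers: Nos2 was 7.08 ± 0.10 above untreated under IFN-gamma/LPS and 6.73 ± 0.10 under LPS/IL-4/IL-13, and Retnla 5.56 ± 0.19 under IL-4/IL-13. Under LPS/IL-4/IL-13 the 2 IL-4/IL-13 markers parted. Retnla was not above untreated there (-0.19 ± 0.19), while Arg1 was 5.48 ± 0.12 above it, beside 3.45 ± 0.12 under IL-4/IL-13. Of 10 measured macrophage markers, 10 lay above the median of all genes in the first 3 groups and 9 under LPS/IL-4/IL-13. At an adjusted p under 0.05 in limma, 3 were higher and 6 lower than untreated in each group with LPS (90%, beside 51.9% and 45.6% of all genes). In each group with LPS, 4 of 5 fibroblast markers and 3 of 3 platelet and megakaryocyte markers also lay above that median, so this count does not tell cell types apart. The mean log2 signal of 8 dendritic cell markers ranged over 5.71 to 5.76 in untreated cells, 6.63 to 6.66 under IFN-gamma/LPS, 6.06 to 6.13 under IL-4/IL-13 and 6.54 to 6.64 under LPS/IL-4/IL-13. The 8 did not move alike. Their differences from untreated ran from -0.625 (Kmo) to 2.935 (Ccr7) under IFN-gamma/LPS. Under LPS/IL-4/IL-13 they ran from 0.14 (Siglech) to 2.3 (Kmo). Activated macrophages can express some of these markers themselves, and their part in the results below was not tested. In bulk samples, fewer cells of a type and less RNA per cell cannot be told apart.

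All 3 treatments changed Rab genes in both directions. Every change is a log2 difference ± its standard error (limma, n = 2 arrays in each group). Rose and fell are used for an adjusted p under 0.05 over all 19938 genes. Under IFN-gamma/LPS 15 of the 59 Rab genes rose and 18 fell, where 23.6% of all genes rose and 28.4% fell. Under IL-4/IL-13 5 rose and 12 fell, with 7.83% and 12.3% for all genes. These counts rest on single arrays: 1 rose without untreated array 1, untreated array 2 or IL-4/IL-13 array 2, and 6 fell without untreated array 1. Under LPS/IL-4/IL-13 19 rose and 16 fell, with 20.3% and 25.4% for all genes. The median change of the Rab genes was 0.08, -0.055 and 0.08 in these comparisons, beside 0.105, 0.07 and 0.09 for all genes. Leaving out the dimmest genes made the all-gene medians -0.135, -0.015 and -0.065, while the Rab medians include dim genes. At least 1 of these comparisons, which share the untreated arrays, was passed by 45 of 59 Rab genes, beside 60.5% of all genes. Among genes outside the dimmest 40% of the array it was 38 of 46 Rab genes (82.6%), beside 79.9% of all such genes. Above that cut the Rab genes were thus called about as often as other genes. Of the 13 dimmer Rab genes 7 were called (53.8%), a share not set against that of all dimmer genes. No closer match by signal was made. Changes of at least 2-fold in 1 comparison or more were found for 13 Rab genes, beside 20.0% of all genes, and these 13 are given below with every array. By comparison, 4 rose and 8 fell at least 2-fold under IFN-gamma/LPS (5.84% and 11.2% of all genes), 1 and 1 under IL-4/IL-13 (1.07% and 1.37%), and 2 and 5 under LPS/IL-4/IL-13 (5.18% and 8.71%). The 14 Rab genes that passed none of the 3 tests, beside 39.5% of all genes, were Rab3b, Rab3c, Rab13, Rab17, Rab24, Rab25, Rab26, Rab27a, Rab28, Rab33b, Rab36, Rab37, Rab38 and Rab40b. The map of changes by compartment shows the few strong changes among many small ones.

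**Figure D1:**
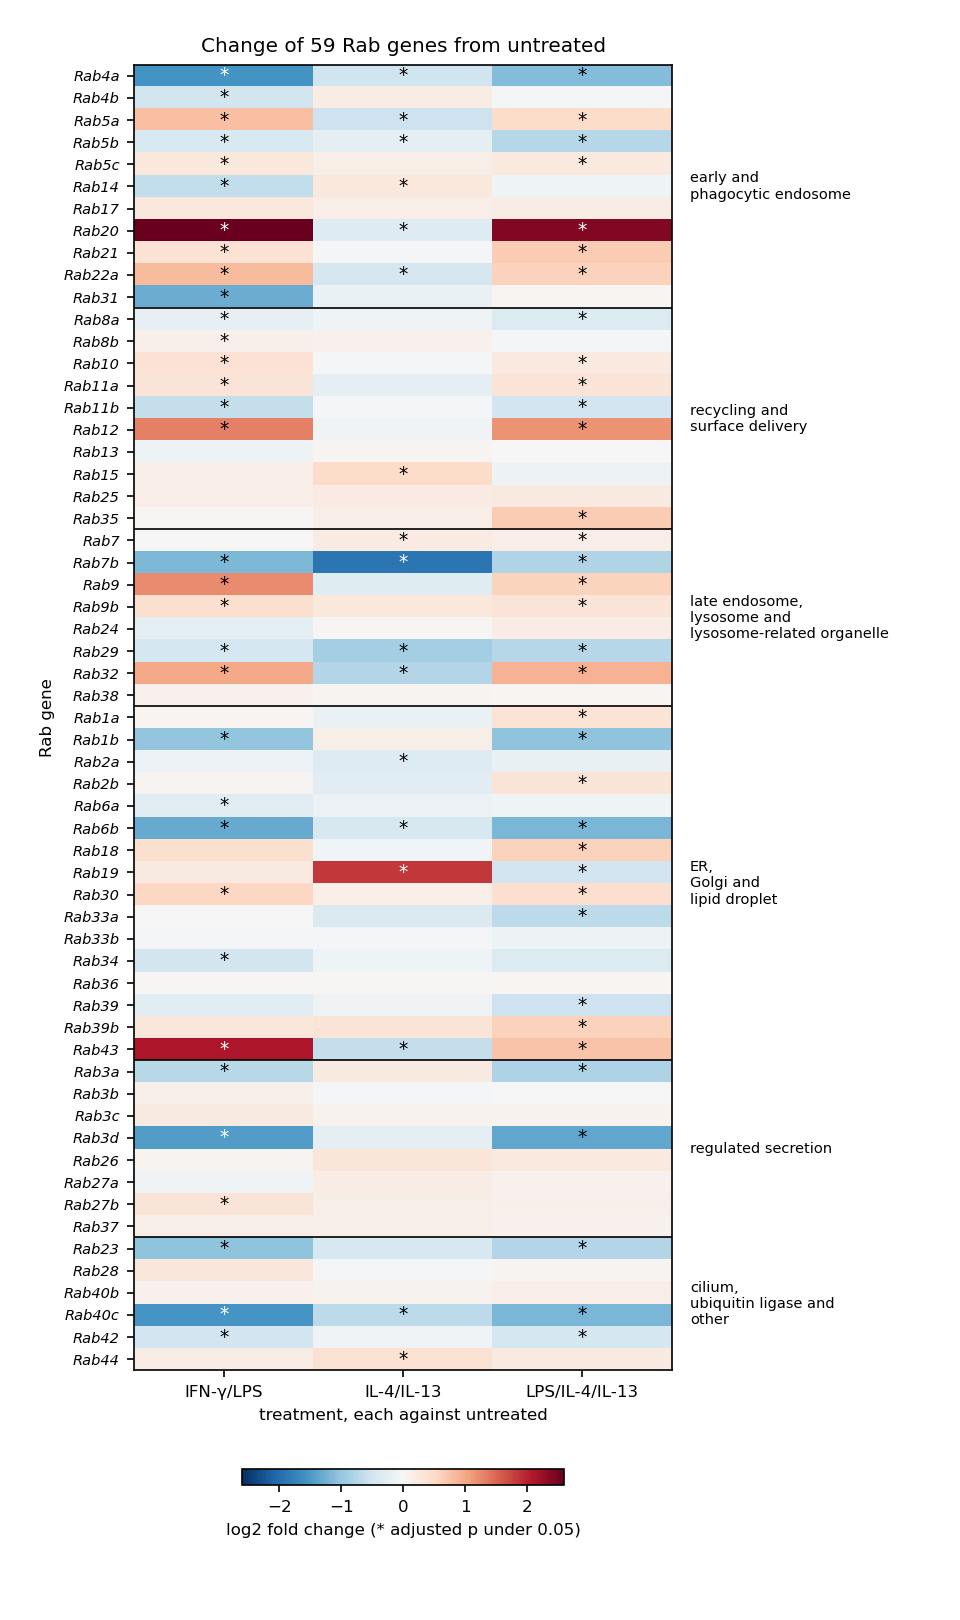
Log2 fold change from untreated cells (colour) of each of the 59 Rab genes (vertical axis), by treatment (horizontal axis) and grouped by compartment, with an asterisk where the adjusted p was under 0.05. Rab20 (2.58) and Rab43 (2.10) were the strongest increases under IFN-gamma/LPS, Rab19 (1.83) and Rab7b (-1.90) the strongest changes under IL-4/IL-13.

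Promoter sequences are shown for 3 genes, picked after their values were seen as examples of 3 different patterns: Rab20, which rose in both groups with LPS, Rab19, which rose under IL-4/IL-13, and Rab31, which fell under IFN-gamma/LPS and not under LPS/IL-4/IL-13. Each is the RefSeq window from 250 bases before a start to 50 after it on build GRCm38.p6, written 5′ to 3′ on the gene's strand. Capitals mark matches on either strand to 4 motifs. The NF-kB motif was GGGA and CC with 4 free bases between, the GAS motif of STAT proteins TTC and GAA with 3 between, the wider STAT6 spacing TTC and GAA with 4 between, and the core of the interferon-stimulated response element GAAA and GAAA with 2 between.
Rab20 (chr8:11478591-11478890, minus strand): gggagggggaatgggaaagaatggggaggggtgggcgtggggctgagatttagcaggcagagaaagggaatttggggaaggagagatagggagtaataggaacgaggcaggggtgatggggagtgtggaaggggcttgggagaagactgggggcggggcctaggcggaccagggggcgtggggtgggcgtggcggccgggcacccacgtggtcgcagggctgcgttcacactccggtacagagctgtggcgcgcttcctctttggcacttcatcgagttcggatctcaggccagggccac
Rab19 (chr6:39381103-39381402, plus strand): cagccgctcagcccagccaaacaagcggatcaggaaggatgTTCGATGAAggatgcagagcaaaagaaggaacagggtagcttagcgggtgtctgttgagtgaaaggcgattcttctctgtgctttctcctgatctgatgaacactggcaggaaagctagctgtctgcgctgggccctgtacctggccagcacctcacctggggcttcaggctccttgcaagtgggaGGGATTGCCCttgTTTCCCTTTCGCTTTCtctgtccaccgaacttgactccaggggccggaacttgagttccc
Rab31 (chr17:65772703-65773002, minus strand): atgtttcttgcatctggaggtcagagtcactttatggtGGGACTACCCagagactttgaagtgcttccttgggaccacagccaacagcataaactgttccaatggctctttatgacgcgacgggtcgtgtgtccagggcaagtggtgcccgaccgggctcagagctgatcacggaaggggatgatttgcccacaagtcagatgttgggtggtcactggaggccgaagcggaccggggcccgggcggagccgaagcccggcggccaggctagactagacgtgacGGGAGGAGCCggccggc
The Rab20 window held 0 matches. The Rab19 window held 1 to the NF-kB motif, 1 to the GAS motif and 2 overlapping ones to the interferon-stimulated element, the last of which ran across the start. The start used for Rab19 lies 644 bases inside the gene's annotated span. The Rab31 window held 2 matches to the NF-kB motif. Of 60 windows found for 48 of the 59 Rab genes, 10 held the NF-kB motif (16.7%), beside 20.7% of 32851 windows of all genes, and 5 held the GAS motif (8.33%), beside 8.30%. The wider STAT6 spacing was in 3 Rab windows (5.0%, beside 6.95%) and the interferon-stimulated element in 1, that of Rab19 (1.67%, beside 3.44%). A match is a run of letters and not a site shown to be used.

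Rabs of the early endosome and phagosome included Rab20, the largest rise among the Rab genes against untreated cells. Of 11 genes, 5 rose and 5 fell under IFN-gamma/LPS, 1 rose and 5 fell under IL-4/IL-13, and 5 rose and 2 fell under LPS/IL-4/IL-13. In either direction these were 90.9%, 54.5% and 63.6% of the 11, beside 51.9%, 20.2% and 45.6% of all genes. Only Rab17 of the 11 is among the dimmest 40% of genes. With those left out, 28.4% of genes rose and 45.1% fell under IFN-gamma/LPS, 13.1% and 22.0% under IL-4/IL-13, and 26.7% and 40.3% under LPS/IL-4/IL-13. The all-gene shares given for the other compartments include the dimmest 40% as well. Rab20, which acts in the maturation of phagosomes and macropinosomes, read 7.90 and 7.85 in untreated cells, 10.45 and 10.45 under IFN-gamma/LPS, 7.44 and 7.62 under IL-4/IL-13 and 10.32 and 10.25 under LPS/IL-4/IL-13. Both groups with LPS stood far above the other arrays and did not overlap with them. It rose 5.96-fold under IFN-gamma/LPS (2.58 ± 0.09, adjusted p = 2.46e-10) and 5.31-fold under LPS/IL-4/IL-13 (2.41 ± 0.09, adjusted p = 5.58e-10). Between these groups it did not pass (-0.17 ± 0.09, 95% interval -0.36 to 0.03). Under IL-4/IL-13 it fell by 0.35 (adjusted p = 0.0178), a call that was lost without either untreated array (adjusted p = 0.145 and 0.0766) or IL-4/IL-13 array 1 (adjusted p = 0.131) and after quantile normalization (adjusted p = 0.0549). Rab31, an endosomal Rab close to Rab22a that carries cargo from the Golgi to endosomes, read 11.45 and 11.44 in untreated cells, 10.21 and 10.11 under IFN-gamma/LPS, 11.27 and 11.28 under IL-4/IL-13 and 11.43 and 11.55 under LPS/IL-4/IL-13. The IFN-gamma/LPS arrays stood alone below the other 6. Rab31 fell 2.44-fold there (-1.29 ± 0.07, adjusted p = 1.04e-08), and did not pass under LPS/IL-4/IL-13 (0.05 ± 0.07) or IL-4/IL-13 (-0.17 ± 0.07). Rab4a, which returns receptors from early endosomes to the surface, read 7.92 and 7.78 in untreated cells, 6.28 and 6.30 under IFN-gamma/LPS, 7.37 and 7.28 under IL-4/IL-13 and 6.71 and 6.74 under LPS/IL-4/IL-13. All treated arrays lay below both untreated ones, in the order IL-4/IL-13, LPS/IL-4/IL-13, IFN-gamma/LPS with no overlap. Its fall was -1.56 ± 0.10 under IFN-gamma/LPS (adjusted p = 5.80e-08), -1.13 ± 0.10 under LPS/IL-4/IL-13 and -0.53 ± 0.10 under IL-4/IL-13, where it did not pass without untreated array 1 (adjusted p = 0.0521).

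Smaller changes in this compartment ran both ways. Rab5a, which governs fusion of early endosomes, read 10.02 and 9.97 in untreated cells, 10.85 and 10.70 under IFN-gamma/LPS, 9.50 and 9.43 under IL-4/IL-13 and 10.56 and 10.40 under LPS/IL-4/IL-13. It rose under IFN-gamma/LPS (0.78 ± 0.08) and LPS/IL-4/IL-13 (0.49 ± 0.08) and fell under IL-4/IL-13 (-0.53 ± 0.08), with no overlap with untreated arrays. Rab22a, another early endosomal Rab, rose by 0.83 ± 0.12 and 0.60 ± 0.12 in the groups with LPS, and its fall under IL-4/IL-13 (-0.44 ± 0.12) was lost without either untreated array or IL-4/IL-13 array 2. Rab21, a regulator of integrin traffic, rose by 0.37 ± 0.09 and 0.66 ± 0.09. Rab14, which moves cargo between Golgi and endosomes, fell under IFN-gamma/LPS (-0.64 ± 0.08) and was at -0.12 ± 0.08 under LPS/IL-4/IL-13, not passing. Its rise under IL-4/IL-13 (0.27 ± 0.08) was lost without any 1 of the untreated or IL-4/IL-13 arrays. The same held for the fall of Rab5b under IL-4/IL-13 (-0.26 ± 0.08).

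In the group of recycling and surface-delivery Rabs, Rab12 was the gene that changed at least 2-fold, although its route described below leads to lysosomes. Of 10 genes, 4 rose and 2 fell in each group with LPS (60%, beside 51.9% of all genes under IFN-gamma/LPS and 45.6% under LPS/IL-4/IL-13), and under IL-4/IL-13 only Rab15 passed, with a rise of 0.47 ± 0.11 that was lost without either untreated array or IL-4/IL-13 array 2. Rab12, which sends the transferrin receptor to lysosomes, read 9.81 and 9.63 in untreated cells, 10.95 and 11.13 under IFN-gamma/LPS, 9.71 and 9.56 under IL-4/IL-13 and 11.02 and 10.74 under LPS/IL-4/IL-13. Both groups with LPS lay above the other 4 arrays. The rise was 2.50-fold under IFN-gamma/LPS (1.32 ± 0.11, adjusted p = 5.32e-07) and 2.23-fold under LPS/IL-4/IL-13 (1.16 ± 0.11, adjusted p = 2.16e-06). Rab10, which brings Toll-like receptor 4 to the surface of mouse macrophages, rose by 0.39 ± 0.06 and 0.26 ± 0.06, the second of which did not pass without untreated array 2. Rab35, a Rab of fast recycling at the plasma membrane, read 10.03 and 9.96 in untreated cells, 9.86 and 10.18 under IFN-gamma/LPS, 10.11 and 10.23 under IL-4/IL-13 and 10.72 and 10.59 under LPS/IL-4/IL-13. The LPS/IL-4/IL-13 arrays stood above the other 6. It rose there (0.66 ± 0.10, adjusted p = 1.94e-04) and was at 0.03 ± 0.10 under IFN-gamma/LPS (adjusted p = 0.853).

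Late endosomal and lysosomal Rabs included Rab7b and Rab29, which fell in every treatment. Of 8 genes, 3 rose and 2 fell under IFN-gamma/LPS, 1 rose and 3 fell under IL-4/IL-13, and 4 rose and 2 fell under LPS/IL-4/IL-13. The called shares were 62.5%, 50% and 75%, beside 51.9%, 20.2% and 45.6% of all genes. Rab7b, which in macrophages promotes lysosomal breakdown of Toll-like receptors, read 10.87 and 10.84 in untreated cells, 9.60 and 9.79 under IFN-gamma/LPS, 8.91 and 9.01 under IL-4/IL-13 and 10.20 and 9.94 under LPS/IL-4/IL-13. The groups did not overlap, and IL-4/IL-13 was lowest. Its fall was 3.72-fold under IL-4/IL-13 (-1.90 ± 0.10, adjusted p = 1.10e-07), 2.23-fold under IFN-gamma/LPS (-1.16 ± 0.10) and 1.72-fold under LPS/IL-4/IL-13 (-0.79 ± 0.10). Rab9, which returns mannose 6-phosphate receptors from late endosomes to the Golgi, read 9.72 and 9.75 in untreated cells, 10.99 and 10.95 under IFN-gamma/LPS, 9.58 and 9.27 under IL-4/IL-13 and 10.18 and 10.43 under LPS/IL-4/IL-13. Both groups with LPS lay above the untreated arrays, IFN-gamma/LPS the higher. Its rise was 2.35-fold under IFN-gamma/LPS (1.24 ± 0.11, adjusted p = 9.96e-07) and 0.57 ± 0.11 under LPS/IL-4/IL-13 (adjusted p = 9.10e-04). Rab32, which with its exchange factor BLOC-3 (Hps1 and Hps4) acts on lysosome-related organelles and pathogen vacuoles, came just under 2-fold and read 8.65 and 8.62 in untreated cells, 9.62 and 9.62 under IFN-gamma/LPS, 7.94 and 7.82 under IL-4/IL-13 and 9.66 and 9.40 under LPS/IL-4/IL-13. The IL-4/IL-13 arrays lay below and both groups with LPS above the untreated arrays. It rose by 0.99 ± 0.10 and 0.90 ± 0.10 in the groups with LPS and fell by 0.76 ± 0.10 under IL-4/IL-13. Rab29, a partner of the kinase Lrrk2, fell in all 3 treatments, the most under IL-4/IL-13 (-0.89 ± 0.09). Rab7, the main late endosomal Rab, was within 0.22 of untreated in each treatment. Its rise under IL-4/IL-13 (0.22 ± 0.07) and that under LPS/IL-4/IL-13 (0.18 ± 0.07) were lost without either untreated array, among other settings.

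**Figure D2:**
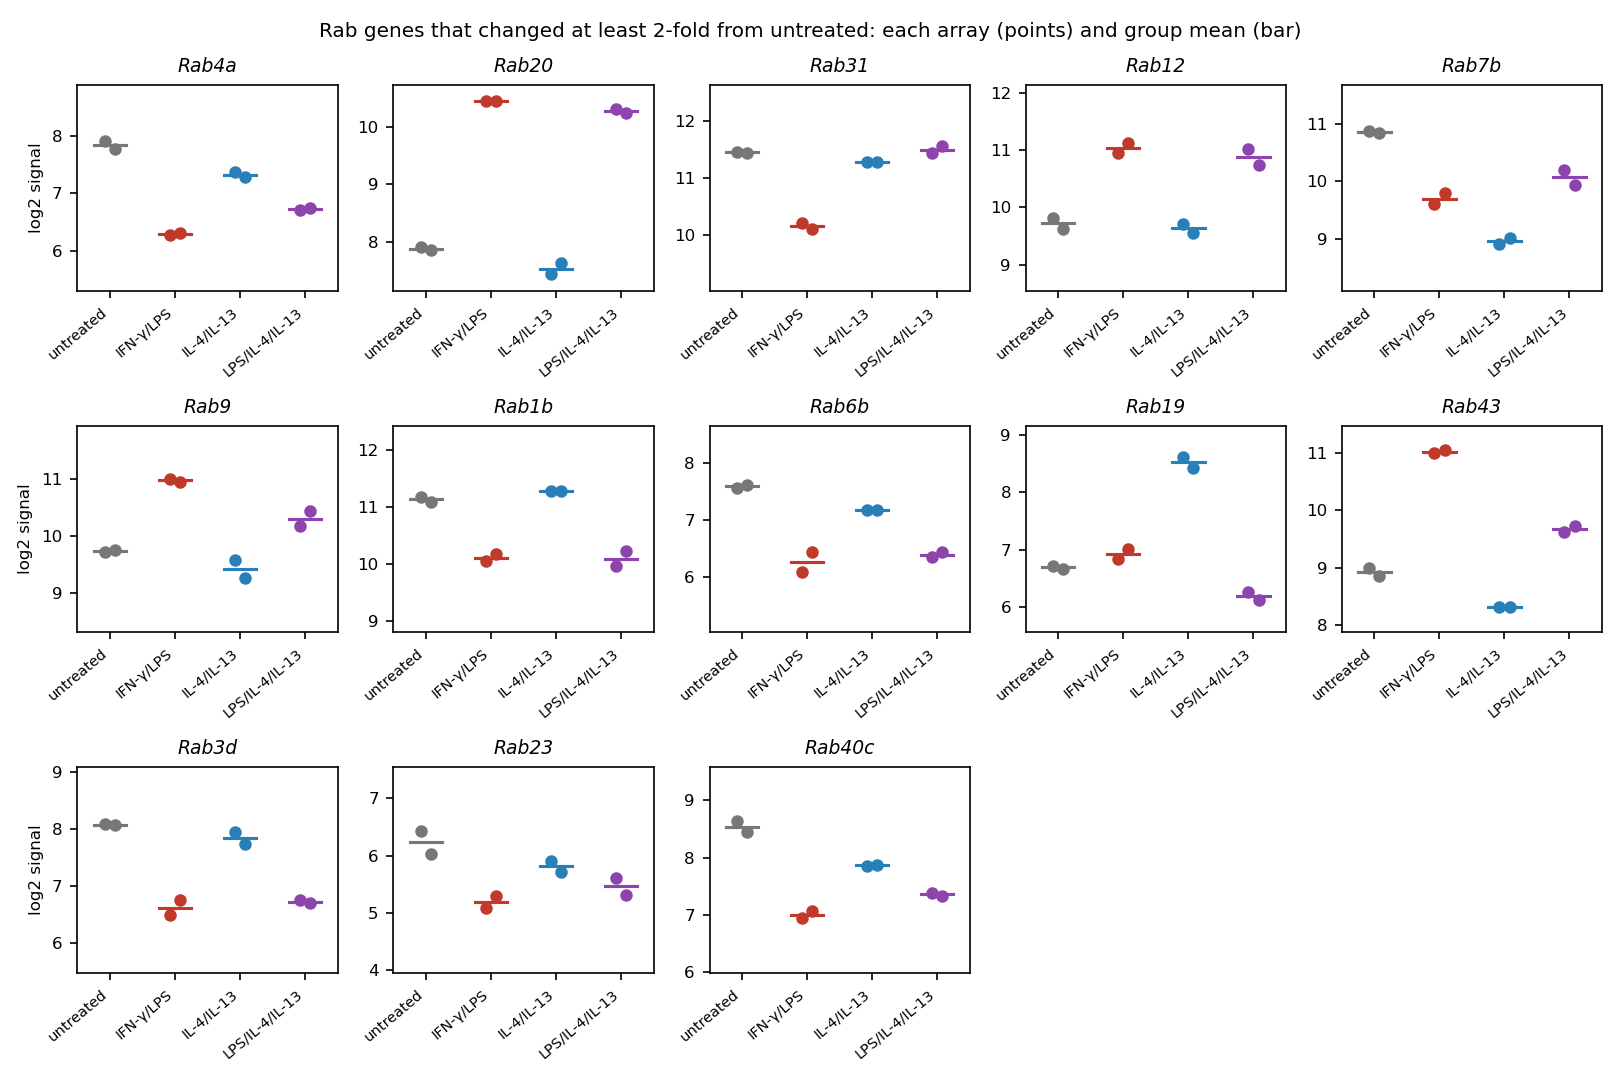
Log2 signal (vertical axis) on each of the 8 arrays (points) with the group mean (bar) for the 13 Rab genes that changed at least 2-fold from untreated cells, by group (horizontal axis), every panel spanning the same range. Rab20 and Rab12 were high in both groups with LPS, Rab19 in IL-4/IL-13 alone, and Rab31 was low in IFN-gamma/LPS alone.

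ER, Golgi and lipid droplet Rabs included Rab43 and Rab19, each with opposite changes in different treatments. Of 16 genes, 2 rose and 4 fell under IFN-gamma/LPS, 1 rose and 3 fell under IL-4/IL-13, and 6 rose and 5 fell under LPS/IL-4/IL-13. That made 37.5%, 25% and 68.8% called, beside 51.9%, 20.2% and 45.6% of all genes. Under LPS/IL-4/IL-13 the rises of Rab2b, Rab18 and Rab30 were lost without untreated array 1 or LPS/IL-4/IL-13 array 1, among other settings. Rab43, which acts at the Golgi and in cross-presentation by mouse dendritic cells, read 8.99 and 8.86 in untreated cells, 11.00 and 11.05 under IFN-gamma/LPS, 8.31 and 8.31 under IL-4/IL-13 and 9.62 and 9.73 under LPS/IL-4/IL-13. The 4 groups were fully separate, with IL-4/IL-13 lowest and IFN-gamma/LPS highest. It rose 4.29-fold under IFN-gamma/LPS (2.10 ± 0.08, adjusted p = 8.14e-10), rose 1.68-fold under LPS/IL-4/IL-13 (0.75 ± 0.08) and fell 1.53-fold under IL-4/IL-13 (-0.62 ± 0.08, adjusted p = 2.40e-04). Rab19, a Golgi-associated Rab, read 6.72 and 6.67 in untreated cells, 6.84 and 7.01 under IFN-gamma/LPS, 8.62 and 8.43 under IL-4/IL-13 and 6.26 and 6.12 under LPS/IL-4/IL-13. The IL-4/IL-13 arrays stood far above the other 6, and the LPS/IL-4/IL-13 arrays were lowest. It rose 3.56-fold under IL-4/IL-13 (1.83 ± 0.11, adjusted p = 3.75e-07) and fell under LPS/IL-4/IL-13 (-0.51 ± 0.11, adjusted p = 0.00268). Under IFN-gamma/LPS it did not pass (0.23 ± 0.11, adjusted p = 0.105), although it did after quantile normalization (0.37, adjusted p = 0.0152).

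Rab1b and Rab6b were lower in both groups with LPS. Rab1b, which drives transport from the ER to the Golgi, read 11.18 and 11.08 in untreated cells, 10.05 and 10.17 under IFN-gamma/LPS, 11.28 and 11.27 under IL-4/IL-13 and 9.96 and 10.22 under LPS/IL-4/IL-13. The groups with LPS lay below the other 4 arrays, with no overlap. The fall was -1.02 ± 0.09 under IFN-gamma/LPS (adjusted p = 1.04e-06) and -1.04 ± 0.09 under LPS/IL-4/IL-13 (adjusted p = 1.09e-06). Rab6b, a Golgi Rab best known from neurons, read 7.56 and 7.61 in untreated cells, 6.09 and 6.44 under IFN-gamma/LPS, 7.18 and 7.17 under IL-4/IL-13 and 6.35 and 6.44 under LPS/IL-4/IL-13. Every treated array lay below the untreated ones, those with LPS the lowest. The fall was -1.32 ± 0.12 and -1.19 ± 0.12 in the groups with LPS, and -0.41 ± 0.12 under IL-4/IL-13, a call lost without any 1 of the untreated or IL-4/IL-13 arrays (adjusted p between 0.112 and 0.157) and after quantile normalization (adjusted p = 0.0980). Rab18, a lipid droplet Rab, rose under LPS/IL-4/IL-13 (0.60 ± 0.18, adjusted p = 0.0197), where its replicates read 8.43 and 7.74. That call was lost without either untreated array or LPS/IL-4/IL-13 array 1. Rab39, which binds caspase-1 in human cells, fell under LPS/IL-4/IL-13 (-0.55 ± 0.11), and Rab33a did too (-0.68 ± 0.13).

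Among 8 Rabs of regulated secretion, 2 fell in each group with LPS, and 1 rose under IFN-gamma/LPS. The share that fell was near that of all genes (28.4% under IFN-gamma/LPS and 25.4% under LPS/IL-4/IL-13). Rab3d, a Rab of secretory granules, read 8.09 and 8.06 in untreated cells, 6.49 and 6.75 under IFN-gamma/LPS, 7.95 and 7.74 under IL-4/IL-13 and 6.76 and 6.70 under LPS/IL-4/IL-13. Both groups with LPS lay below the other 4 arrays, with no overlap. It fell 2.74-fold under IFN-gamma/LPS (-1.46 ± 0.12, adjusted p = 4.23e-07) and 2.54-fold under LPS/IL-4/IL-13 (-1.35 ± 0.12, adjusted p = 1.07e-06). Rab3a, its synaptic vesicle relative, fell under IFN-gamma/LPS (-0.73 ± 0.12) and LPS/IL-4/IL-13 (-0.80 ± 0.12). Rab27a, which docks secretory lysosomes and exosome-bearing compartments, was at -0.09 ± 0.13 under IFN-gamma/LPS, 0.20 ± 0.13 under IL-4/IL-13 and 0.11 ± 0.13 under LPS/IL-4/IL-13, none of which passed. Rab27b rose under IFN-gamma/LPS (0.35 ± 0.12) and was at 0.14 ± 0.12 under LPS/IL-4/IL-13, the difference between these groups not passing (-0.21 ± 0.12, adjusted p = 0.290). Its call was lost without untreated array 1, without either IFN-gamma/LPS array and after quantile normalization.

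Of the 6 remaining Rabs, 3 fell in each group with LPS, beside 28.4% and 25.4% of all genes. They were Rab40c, Rab23 and Rab42. Rab42 is among the dimmest 40% of genes and read 4.78 and 5.27 under IFN-gamma/LPS. Both of its calls were lost without untreated array 1, among other settings. Rab40c, which joins a ubiquitin ligase through a SOCS box, read 8.64 and 8.44 in untreated cells, 6.94 and 7.07 under IFN-gamma/LPS, 7.86 and 7.87 under IL-4/IL-13 and 7.38 and 7.33 under LPS/IL-4/IL-13. All treated arrays lay below the untreated ones, and no groups overlapped. Its fall was 2.90-fold under IFN-gamma/LPS (-1.54 ± 0.10, adjusted p = 8.75e-08), -1.19 ± 0.10 under LPS/IL-4/IL-13 and -0.68 ± 0.10 under IL-4/IL-13. Rab23, a negative regulator of Hedgehog signalling, read 6.43 and 6.03 in untreated cells, 5.08 and 5.29 under IFN-gamma/LPS, 5.91 and 5.71 under IL-4/IL-13 and 5.61 and 5.31 under LPS/IL-4/IL-13. The arrays with LPS lay below the other 4. It is among the dimmest 40% of genes, and its replicates were up to 0.40 apart. It fell under IFN-gamma/LPS (-1.05 ± 0.16, adjusted p = 1.18e-04) and LPS/IL-4/IL-13 (-0.77 ± 0.16, adjusted p = 0.00151). Rab44, a large Rab of mast cells and osteoclasts, rose under IL-4/IL-13 (0.40 ± 0.12), a call lost without either untreated array or IL-4/IL-13 array 2.

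The groups with LPS were compared directly to see where IFN-gamma in one and IL-4 and IL-13 in the other went with a different Rab level. In LPS/IL-4/IL-13 10 Rab genes were higher and 7 lower than in IFN-gamma/LPS, beside 12.1% and 7.62% of all genes. Rab31 was 2.51-fold higher (1.33 ± 0.07, adjusted p = 6.80e-08) and Rab43 2.55-fold lower (-1.35 ± 0.08, adjusted p = 2.96e-07), the only Rab genes past 2-fold in this comparison (1.68% of all genes higher and 1.63% lower). Rab35 (0.64 ± 0.10) and Rab14 (0.52 ± 0.08) were higher, and Rab19 (-0.74 ± 0.11), Rab33a (-0.69 ± 0.13) and Rab9 (-0.67 ± 0.11) lower. These 7 calls kept an adjusted p under 0.05 with each array left out and under each other normalization or fit tried, except that Rab33a, among the dimmest 40% of genes, was not tested where those were dropped. The higher calls fell to 3 without IFN-gamma/LPS array 1 and to 5 without LPS/IL-4/IL-13 array 1. Rab12 (-0.16 ± 0.11, 95% interval -0.40 to 0.08), Rab32 (-0.09 ± 0.10, 95% interval -0.31 to 0.13) and Rab1b (-0.02 ± 0.09, 95% interval -0.22 to 0.18) did not pass.

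**Figure D3:**
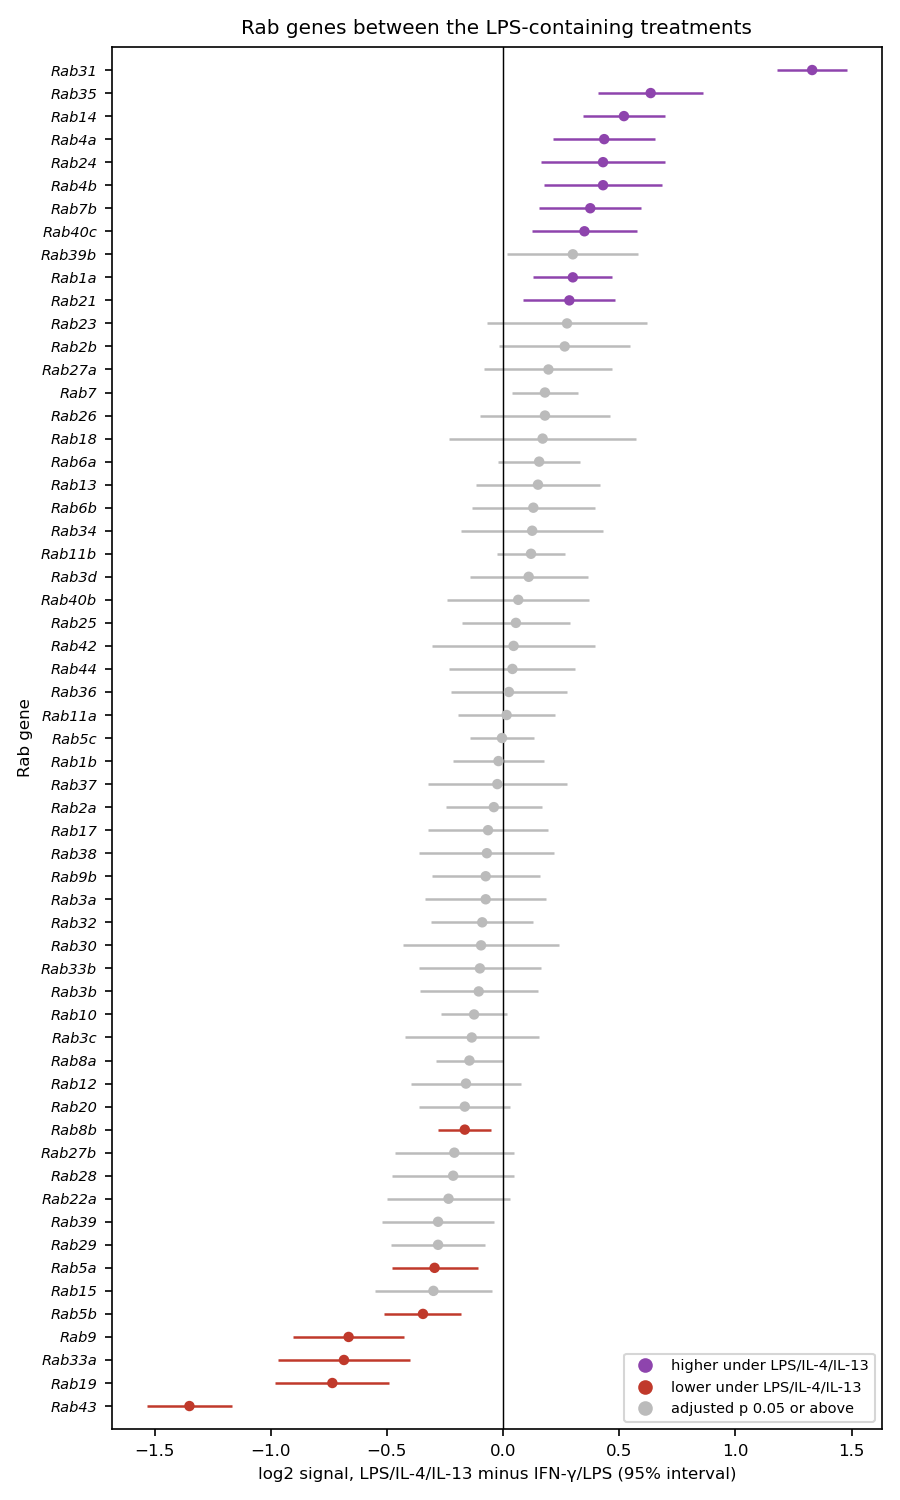
Log2 signal under LPS/IL-4/IL-13 minus that under IFN-gamma/LPS (horizontal axis, point with 95% interval from limma) for each of the 59 Rab genes (vertical axis), coloured by whether the adjusted p was under 0.05. Rab31 and Rab43 lie apart from the rest at 1.33 and -1.35.

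Adding LPS to IL-4 and IL-13 went with large Rab differences. Against IL-4/IL-13 alone, 16 Rab genes were higher and 14 lower, beside 14.1% and 22.6% of all genes. Rab20 was 6.75-fold higher (2.76 ± 0.09, adjusted p = 2.32e-10), Rab32 3.14-fold (1.65 ± 0.10) and Rab43 2.58-fold (1.37 ± 0.08). Rab19 was 5.05-fold lower (-2.34 ± 0.11, adjusted p = 6.02e-09), followed by Rab1b (-1.19 ± 0.09), Rab3d (-1.12 ± 0.12) and Rab3a (-1.03 ± 0.12). Past 2-fold were 7 higher and 4 lower, beside 5.34% and 5.82% of all genes. Rab7b was higher (1.11 ± 0.10), its fall from untreated being smaller in the group with LPS. Set against the IL-4/IL-13 group, IFN-gamma/LPS had 17 Rab genes higher and 13 lower, beside 15.5% and 26.1% of all genes, and 7 higher and 5 lower past 2-fold, beside 6.31% and 8.84%. The widest differences there were Rab20 (2.92 ± 0.09), Rab43 (2.72 ± 0.08), Rab32 (1.74 ± 0.10) and Rab9 (1.55 ± 0.11) upward and Rab19 (-1.60 ± 0.11), Rab3d (-1.23 ± 0.12) and Rab1b (-1.17 ± 0.09) downward. These comparisons share arrays with one another.

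Rab genes that share a number did not always move together. There were 14 such numbers with 31 genes, and opposite calls occurred within 3 of them under IFN-gamma/LPS, 1 under IL-4/IL-13 and 5 under LPS/IL-4/IL-13. The 1 under IL-4/IL-13, and 1 of the 5, was Rab7 with Rab7b, and rests on the rises of Rab7 that were lost without either untreated array, which leaves 0 under IL-4/IL-13. In the Rab5 trio of early endosome genes, Rab5a (0.78 ± 0.08) and Rab5c (0.27 ± 0.06) rose under IFN-gamma/LPS while Rab5b fell (-0.41 ± 0.08), and under LPS/IL-4/IL-13 the values were 0.49 ± 0.08, 0.26 ± 0.06 and -0.75 ± 0.08. In the recycling pair, Rab11a rose (0.33 ± 0.09) and Rab11b fell (-0.63 ± 0.07) under IFN-gamma/LPS, with 0.35 ± 0.09 and -0.51 ± 0.07 under LPS/IL-4/IL-13. The Rab11a calls were lost without untreated array 2, and that under IFN-gamma/LPS also without IFN-gamma/LPS array 2. Rab1a rose (0.36 ± 0.08) where Rab1b fell (-1.04 ± 0.09) under LPS/IL-4/IL-13. Rab8a (-0.22 ± 0.07) and Rab8b (0.14 ± 0.05) had opposite calls under IFN-gamma/LPS that were lost without untreated array 1, among other settings. Rab39b rose (0.59 ± 0.13) where Rab39 fell under LPS/IL-4/IL-13. The difference between members of a number was not itself tested. Opposite calls were not counted in other groups of genes, so these counts cannot be called many or few. Over all genes 23.6% rose and 28.4% fell under IFN-gamma/LPS, and 20.3% and 25.4% under LPS/IL-4/IL-13.

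Genes that switch, anchor or read Rab proteins changed too. Among all genes 23.6% rose and 28.4% fell under IFN-gamma/LPS, 7.83% and 12.3% under IL-4/IL-13, and 20.3% and 25.4% under LPS/IL-4/IL-13, so falls outnumbered rises there as well. With the dimmest 40% left out, 28.4% rose and 45.1% fell under IFN-gamma/LPS, 13.1% and 22.0% under IL-4/IL-13, and 26.7% and 40.3% under LPS/IL-4/IL-13. The lists below were not matched to other genes by signal, and the part of signal in their shares was not tested. Of 35 GTPase-activating protein genes, 18 fell and 8 rose under IFN-gamma/LPS, 13 fell and 3 rose under IL-4/IL-13, and 19 fell and 4 rose under LPS/IL-4/IL-13. In either direction this was 74.3%, 45.7% and 65.7% of the list, beside 51.9%, 20.2% and 45.6% of all genes. Their median change was -0.36, -0.175 and -0.34, beside 0.105, 0.07 and 0.09 for all genes. With the dimmest genes left out, the all-gene medians were -0.135, -0.015 and -0.065. Brighter genes thus also had negative medians, and part of the shift in the list may be shared with them. Tbc1d8 and Tbc1d4, the second a GTPase-activating protein for Rab10 in insulin-responsive cells, fell under IFN-gamma/LPS (-2.45 ± 0.09 and -2.21 ± 0.10) and LPS/IL-4/IL-13 (-2.32 ± 0.09 and -2.50 ± 0.10) and rose under IL-4/IL-13 (1.34 ± 0.09 and 1.06 ± 0.10). Tbc1d1, a close relative of Tbc1d4, rose under IFN-gamma/LPS (1.96 ± 0.11). It was above the IL-4/IL-13 group in both groups with LPS, by 2.05 ± 0.11 under IFN-gamma/LPS and 1.56 ± 0.11 under LPS/IL-4/IL-13. Tbc1d16 rose under IL-4/IL-13 (1.38 ± 0.10) and did not pass in the groups with LPS (-0.08 ± 0.10 and -0.18 ± 0.10).

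Of 31 exchange factor genes, 10 rose and 15 fell under IFN-gamma/LPS, 5 rose and 6 fell under IL-4/IL-13, and 10 rose and 14 fell under LPS/IL-4/IL-13. These were 80.6%, 35.5% and 77.4% of the list, beside 51.9%, 20.2% and 45.6% of all genes. Rab3il1, an exchange factor for Rab8 proteins, fell 9.13-fold under IFN-gamma/LPS (-3.19 ± 0.09, adjusted p = 3.70e-11) and did not pass under LPS/IL-4/IL-13 (-0.11 ± 0.09), with 3.08 ± 0.09 between the groups with LPS (adjusted p = 1.52e-09). Dennd4c, which activates Rab10, fell in both groups with LPS (-2.10 ± 0.09 and -1.57 ± 0.09). The Rab5 exchange factor gene Rin2 rose in both (1.5 ± 0.07 and 1.70 ± 0.07), and Rabgef1, which encodes another, rose by 1.55 ± 0.08 under LPS/IL-4/IL-13. Between the groups with LPS, Rabgef1 was not among the 4 largest called differences of this list. The smallest of those was 0.53 ± 0.09 (Dennd4c), so the Rabgef1 rise is not shown to be particular to LPS/IL-4/IL-13. Ric1, part of the exchange factor for Rab6, rose in all 3 treatments, by 1.42 ± 0.09, 1.04 ± 0.09 and 1.78 ± 0.09.

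Of 10 genes for prenylation, membrane extraction and phosphorylation of Rabs, 0 rose in any of the 3 treatments in limma, also at an unadjusted p under 0.05, while 8, 5 and 6 fell, beside 28.4%, 12.3% and 25.4% of all genes. Gdi2, which pulls GDP-bound Rabs off membranes, fell under IFN-gamma/LPS (-1.14 ± 0.11) and LPS/IL-4/IL-13 (-0.80 ± 0.11), as did the Rab7 kinase gene Lrrk1 (-1.73 ± 0.09 and -1.57 ± 0.09) and the Rab escort protein gene Chml (-1.06 ± 0.13 and -0.86 ± 0.13). Of 46 effector genes, 10 rose and 21 fell under IFN-gamma/LPS, 2 rose and 12 fell under IL-4/IL-13, and 10 rose and 16 fell under LPS/IL-4/IL-13. The called shares were 67.4%, 30.4% and 56.5%, beside 51.9%, 20.2% and 45.6% of all genes. Rab11fip1, a Rab11 effector in recycling, rose 10.1-fold (3.34 ± 0.12) and 6.82-fold (2.77 ± 0.12) in the groups with LPS. The Rab7 effector genes Plekhm1 (-2.06 ± 0.08 and -1.41 ± 0.08) and Vps39 (-1.93 ± 0.10 and -1.66 ± 0.10) fell. Sytl3, a Rab27 effector, rose under IFN-gamma/LPS (2.11 ± 0.15), and LPS/IL-4/IL-13 was lower than that group (-1.31 ± 0.15). The 6 Rab-like GTPase genes had 1 rise and 3 falls under IFN-gamma/LPS, 0 and 1 under IL-4/IL-13, and 3 and 3 under LPS/IL-4/IL-13 (51.9%, 20.2% and 45.6% of all genes called in either direction). Rabl2 (-1.32 ± 0.11) and Rabl6 (-1.25 ± 0.12) fell under IFN-gamma/LPS, and also under LPS/IL-4/IL-13 (-0.72 ± 0.11 and -0.825 ± 0.12). Rabl2 fell under IL-4/IL-13 as well (-0.465 ± 0.11).

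**Figure D4:**
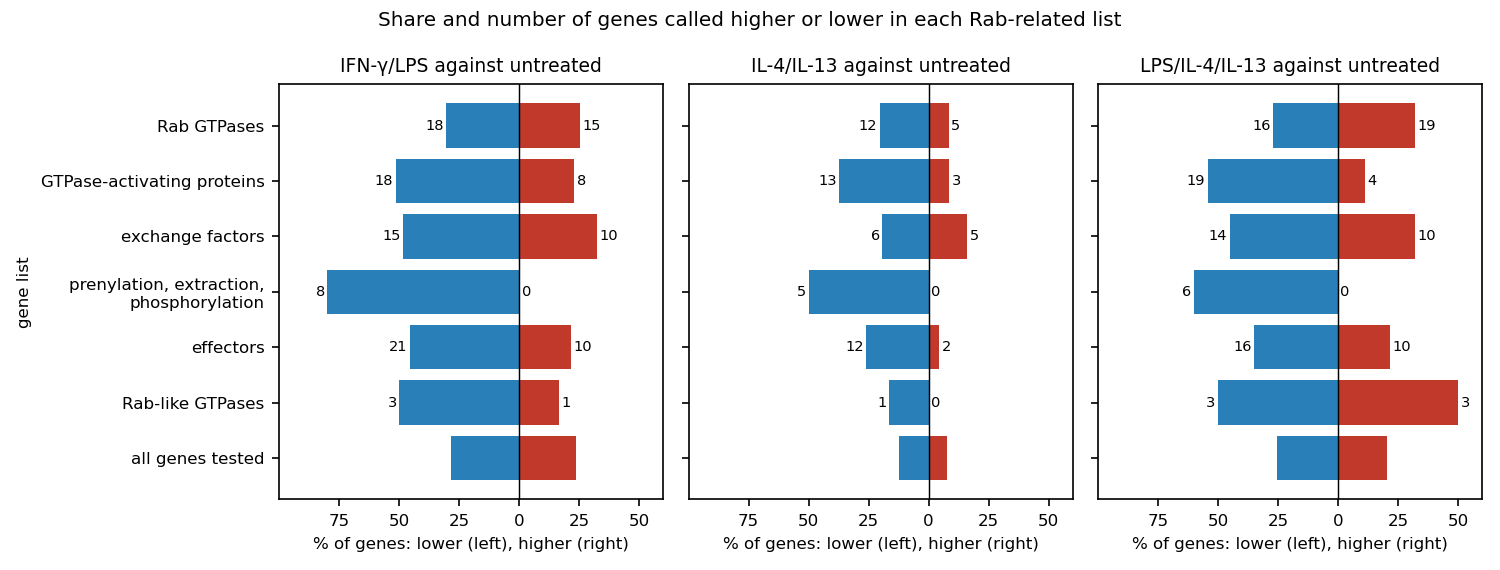
Percent of genes called higher (right) or lower (left) than in untreated cells (horizontal axis) in the Rab genes and 5 lists of Rab-related genes (vertical axis), with all genes tested at the bottom. Numbers at the bars are counts of genes. Under LPS/IL-4/IL-13 19 of 59 Rab genes were higher, beside 20.3% of all genes, and under IFN-gamma/LPS 8 of 10 prenylation, extraction and phosphorylation genes were lower, beside 28.4%.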

How the data were processed

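RNA of cultured mouse macrophages was measured on 8 Affymetrix MoGene-1_0-st-v1 arrays, 1 for each sample, per the labels. The deposited table gives a log2 signal for each probe set. The labels name it a MAS5 signal, but values between 1.46 and 13.71 show a log2 scale. How the authors corrected background and normalized is not stated there, detection calls were not used, and the number of arrays limits the precision. The table held 0 columns outside the 8 samples.

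Symbols were read from the array's annotation as GEO holds it, parts of which may be outdated. Of 35556 probe sets, 21789 had 1 symbol, for 19938 genes, each taken from its brightest probe set. limma 3.58.1 (R 4.3.3) fitted all 4 groups together, with eBayes and a mean-variance trend (4 residual and 7.55 prior degrees of freedom). P-values were adjusted by Benjamini-Hochberg within each of 6 comparisons. The script was tested on simulated data. The labels hold no slide or scan date for a batch check.

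Rab genes called with a change of at least 2-fold from untreated are named with every array. From each list of related genes, at most 4 called genes with the largest change in a comparison and up to 2 that did not pass could be named. Members, compartments and lists were chosen with earlier results of these data known. The alternatives were quantile normalization, median centring, dropping the dimmest 40% of genes, a fit without the variance trend, a fit on the 4 arrays of a comparison, a replicate block, averaging a gene's probe sets, a 2-fold threshold, and leaving out each array.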

Additional observations from a re-analysis of the deposited data

How the results depend on the processing

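Counts of called Rab genes are given as higher and lower. Counting only changes of at least 2-fold gave 4 and 8 under IFN-gamma/LPS, 1 and 1 under IL-4/IL-13 and 2 and 5 under LPS/IL-4/IL-13 against untreated, 1 and 1 for LPS/IL-4/IL-13 compared with IFN-gamma/LPS, and 7 and 4 for LPS/IL-4/IL-13 and 7 and 5 for IFN-gamma/LPS when set against the IL-4/IL-13 group. Under IL-4/IL-13 against untreated, the 5 higher became 2 with median centring, 2 with no variance trend and 10 with only the 4 arrays compared, which also gave 19 lower for 12. For LPS/IL-4/IL-13 compared with IFN-gamma/LPS, the 10 higher became 6 with no variance trend, and the 4 arrays alone gave 4 higher and 4 lower. With 1 array left out, the ranges against untreated were 12 to 17 and 14 to 20 under IFN-gamma/LPS, 1 to 6 and 6 to 15 under IL-4/IL-13, and 13 to 19 and 15 to 17 under LPS/IL-4/IL-13. For LPS/IL-4/IL-13 they were 3 to 11 and 5 to 8 against IFN-gamma/LPS and 14 to 17 and 12 to 15 against IL-4/IL-13, and for IFN-gamma/LPS set against the IL-4/IL-13 group 12 to 18 and 11 to 15. The cause was not tested; a group with 1 array left was assumed to vary like the others. With the replicate number as a block the counts were 15 and 18, 4 and 12, and 17 and 15 against untreated, and 10 and 6, 16 and 13, and 17 and 13 in the other comparisons. Deviations of same-numbered arrays from their group means correlated between groups at -0.358 to 0.217. With 2 arrays per group and both signs present, this does not settle if samples were paired. No called Rab gene changed sign in any setting run. Of the 13 named genes, Rab1b, Rab9, Rab23 and Rab31 passed under IL-4/IL-13 in some settings only (adjusted p = 0.0444, 0.0119, 0.0285 and 0.0115 with only the 4 arrays compared).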

Other observations

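Rab11b, Rab2a and Rab5b each had a second, dimmer probe set that did not enter the comparisons. For Rab11b it gave -1.01 ± 0.11 under IFN-gamma/LPS, -0.29 ± 0.11 under IL-4/IL-13 and -0.69 ± 0.11 under LPS/IL-4/IL-13 (log2 fold change from untreated ± SE), beside -0.63 ± 0.07, -0.06 ± 0.07 and -0.51 ± 0.07 for the brighter one. For Rab5b the values were -0.41 ± 0.08, -0.20 ± 0.08 and -0.78 ± 0.08, beside -0.41 ± 0.08, -0.26 ± 0.08 and -0.75 ± 0.08. The probe sets of Rab2a, a Rab of transport between the ER and the Golgi, parted under IL-4/IL-13, at -0.34 ± 0.10 for the brighter and -0.10 ± 0.12 for the dimmer, and the call was lost with their mean. The Rab5b call under IL-4/IL-13 was also lost with the mean of its probe sets.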
